A study of Mus musculus with 12 samples.

Results

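The synaptic vesicle cycle genes described here were 37 genes whose proteins fill, dock, fuse and recover synaptic vesicles. Their members were all the probe sets that the array annotation assigns to exactly 1 of the 37 symbols. No measured value enters this step, but the 37 genes themselves were chosen with earlier results of these data known. This gave 98 probe sets of 37 genes, out of 45037 probe sets tested and 18193 genes named on the array. A probe set is a group of short oligonucleotides that together read 1 stretch of transcript, and a gene can have several. The genes had between 1 and 6 probe sets, and 30 of them had more than 1.

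At a nerve terminal, neurotransmitter is stored in vesicles that dock at the active zone, a protein scaffold on the inner face of the membrane. Fusion is driven by SNARE proteins, with 1 partner on the vesicle and others on the cell membrane, is held back by complexins until calcium enters, and is triggered when synaptotagmins bind calcium. The membrane is then recovered by endocytosis, and the SNARE complexes are taken apart by an ATPase for the next round. Dopaminergic neurons of the midbrain use this machinery for the release of dopamine from their terminals, and since their cell bodies lie in the ventral tegmental area (VTA), their mRNA for it is found there.

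The VTA was dissected by hand from wild type C57BL/6 mice (named C57 in the labels) at 2 months (young), 10 months (middle aged) and 18 months (late middle-aged). There were 4 arrays for each age, each with RNA pooled from 5 mice, and the mice received no treatment. The question was how gene expression in the VTA changes with age and in which interval. All values are RMA values on the log2 scale, on which a difference of 1 is a doubling, and a call here means an adjusted p in limma below 0.05 together with a change larger than 1.3-fold.

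Young arrays 3 and 4 were nearly identical. Only 1 probe set differed between them by more than 1 log2 unit. Any other 2 replicates of an age (17 pairs) differed in 85 to 4905 probe sets. This is less than the sampling noise seen between all other replicates, so the pair was averaged and counted as 1 sample, which left 3 young samples and 4 of each later age, and where 3 values are given at 2 months the last is this average. In addition, 4 samples lay on the positive side of the first principal component over all probe sets, namely array 2 at 2 months, array 3 at 10 months, and at 18 months arrays 2 and 4. Of the dopaminergic markers, 20 of 22 probe sets lay above the median level over all probe sets. The same was true of 23 of 24 for oligodendrocytes, 14 of 16 for microglia, 8 of 19 for cortex and hippocampus, 6 of 14 for choroid plexus and 2 of 10 for the pituitary. These counts set different probe sets side by side, so they show that dopaminergic markers were present and not which region was dissected.

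The ages also differed in the control probe sets of the array. The 3′ minus 5′ difference of Actb and Gapdh is larger when less of the label reaches the 5′ part of a transcript. It averaged 3.47 ± 0.17 in the 3 young samples, 2.15 ± 0.34 in the 4 samples of 10 months and 1.98 ± 0.24 in the 4 of 18 months (SD). No sample of either later age overlapped with a young one (exact permutation test, two-sided p = 0.0571 in each case, the smallest that 4 samples against 3 allow, and 0.0686 after adjustment over 6 tests). The 27 probe sets of the added poly-A controls averaged 5.75 ± 0.08 at 2 months, 6.03 ± 0.08 at 10 months and 6.48 ± 0.30 at 18 months, with no overlap between any 2 ages. The same exact permutation test gave p = 0.0571 for each later age against 2 months and p = 0.0286 for 18 against 10 months, all 0.0686 after adjustment. In the 3′ minus 5′ difference, 18 and 10 months overlapped (p = 0.486 in the exact permutation test).

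Between 18 and 2 months, 15 of the 98 probe sets were called, or 15.3%, against 7.46% of all probe sets. Of these, 7 rose, or 7.14% against 4.55% of all probe sets, and 8 fell, or 8.16% against 2.91%. The calls were divided over 11 genes, and in Snap25, Syt1 and Cplx2 probe sets of the same gene were called in opposite directions. All 11 were among the 30 genes with several probe sets. Of all named genes with several probe sets, 2073 of 9010 had a call. Only higher calls were found in Nsf, Cplx1, Syngr3 and Rab3a, only lower calls in Syt7, Stx1a, Syn2 and Rab3c, and no call in the other 26 genes. The median change of the 98 probe sets was −0.01, against −0.06 for all probe sets. Most members are bright, and of the 80 above the median level 14 were called (17.5%), against 12.5% of all probe sets above it. With 12 separate arrays, 10 members rose and 8 fell, against 5.84% and 4.06% of all probe sets. Without the 4 samples on the positive side of the first principal component, 4 rose and 7 fell, against 4.03% and 3.55%. As RNA came from whole tissue, fewer cells of a type and less RNA per cell cannot be told apart.

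The samples of 18 and 2 months did not overlap in 37 of the 98 probe sets. In 22 of these every sample at 18 months was higher (22.4%, against 10.4% of all probe sets), and in 15 every sample at 18 months was lower (15.3%, against 13.1%). All 15 called probe sets were among the 37. At an unadjusted p below 0.05, limma gave 39 of the 98 probe sets (39.8%), against 23.6% of all probe sets.

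**Figure D1:**
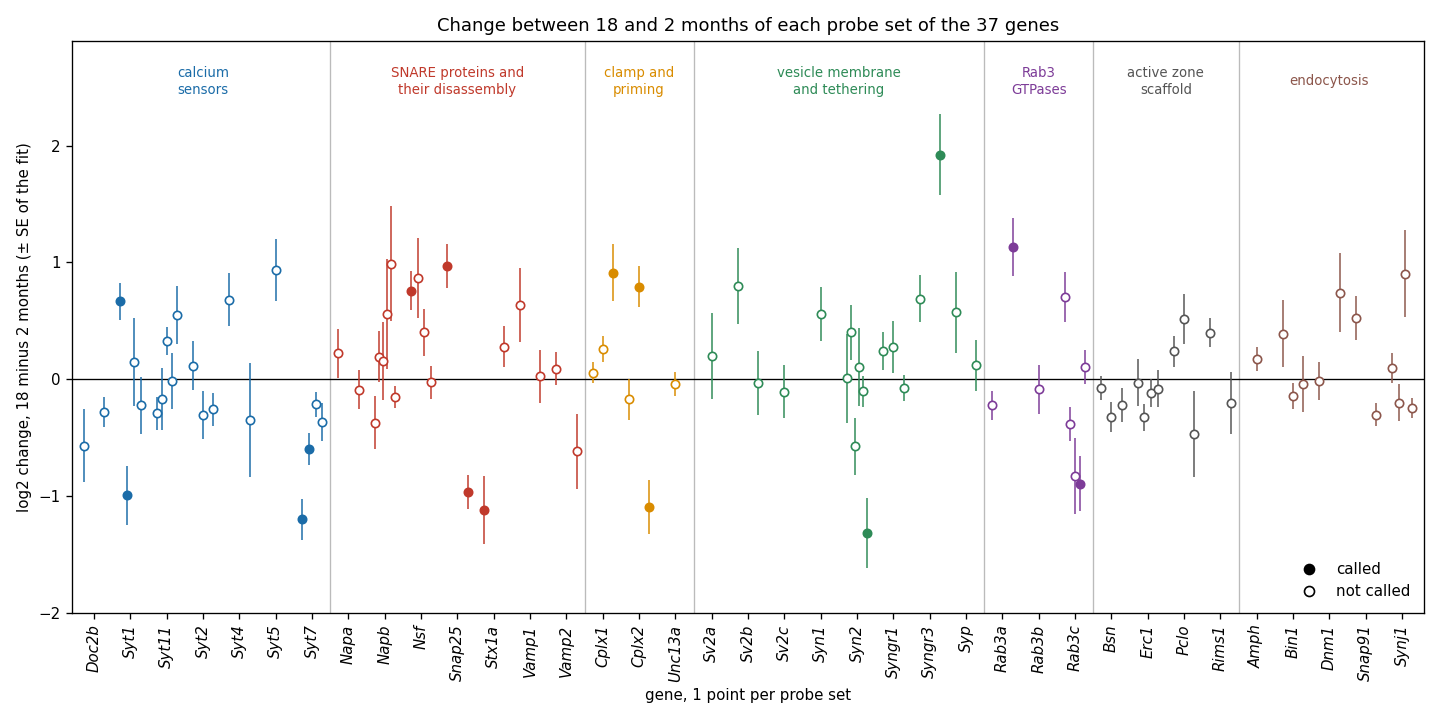
Change between 18 and 2 months of the 98 probe sets. Each point is 1 probe set (log2 change on the vertical axis, bar = SE of the fit, n = 4 against 3), genes are grouped by role on the horizontal axis, and filled points are the 15 called. Filled points of Syt1, Snap25 and Cplx2 lie on both sides of 0. The active zone scaffold and endocytosis groups, with 12 probe sets each, hold none, where 7.46% of all probe sets were called.

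Between 10 and 2 months, 3 of the 98 probe sets were called (3.06%, against 1.36% of all probe sets). These were Syngr3 1448216_at, which rose, and Syt7 1441927_at and Cplx2 1421477_at, which fell. Between 18 and 10 months limma called none, against 0.00222% of all probe sets, and 4 had an unadjusted p below 0.05 (4.08%, against 5.06% of all probe sets). Both later ages were set against the same young samples, so their changes are given side by side below and are not independent.

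Calcium sensors bind the calcium that enters the terminal and start fusion. The group here also holds synaptotagmins for which this does not hold, such as Syt11. The group had 21 probe sets in 7 genes. Of these, 1 rose and 3 fell between 18 and 2 months (19.0% called, against 7.46% of all probe sets). Syt1 (synaptotagmin 1) is the fast calcium sensor of the vesicle. Its probe set 1433884_at gave 12.60, 12.83 and 13.29 at 2 months, 13.71, 13.34, 13.56 and 13.47 at 10 months and 13.77, 13.47, 13.56 and 13.50 at 18 months. All later values lay above the 3 young ones, and the change was 0.67 ± 0.16 (SE) between 18 and 2 months (adjusted p = 0.0296) and 0.61 ± 0.16 between 10 and 2 months (adjusted p = 0.0839, not called). Probe set 1431191_a_at of the same gene gave 9.50, 9.82 and 9.10 at 2 months, 8.78, 8.07, 9.13 and 8.04 at 10 months and 8.46, 8.44, 8.50 and 8.53 at 18 months. Here every sample at 18 months lay below the young ones, while 10 months array 3 overlapped with them, and the change was −0.99 ± 0.25 at 18 months (adjusted p = 0.0364). A further probe set, 1421990_at, gave 8.22, 8.37 and 8.24 at 2 months, 8.68, 7.81, 9.57 and 7.78 at 10 months and 7.85, 8.59, 8.42 and 8.81 at 18 months, with overlap between all ages and a spread within 10 months that was larger than the difference of 0.15 ± 0.38 between 18 and 2 months. The fourth, 1438282_at, had a difference of −0.22 ± 0.25 and was not called.

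Syt1 is also a gene for which RefSeq lists more than 1 transcription start, as it does for 6 of the 29 member genes with a promoter window. The 250 bases before each start are shown because probe sets of the gene disagree and a reader may want to see which starts the annotation knows (build GRCm38.p6, minus strand). The upstream start lies after chr10:109010976-109011225 and the other after chr10:109009112-109009361, both written 5′ to 3′ in the direction of transcription. Capitals mark GGGCGG (the GC box) and CCAAT on either strand.
Syt1 upstream: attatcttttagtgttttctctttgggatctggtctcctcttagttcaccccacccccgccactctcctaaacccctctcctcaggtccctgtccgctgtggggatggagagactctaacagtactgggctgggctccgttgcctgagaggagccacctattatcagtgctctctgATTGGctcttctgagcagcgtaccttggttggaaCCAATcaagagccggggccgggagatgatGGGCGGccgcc
Syt1 downstream: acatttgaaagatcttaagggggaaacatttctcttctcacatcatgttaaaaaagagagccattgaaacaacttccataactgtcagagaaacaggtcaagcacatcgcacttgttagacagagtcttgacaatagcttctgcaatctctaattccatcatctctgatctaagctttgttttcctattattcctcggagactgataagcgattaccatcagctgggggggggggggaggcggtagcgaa
Among windows of 300 bases around the start (250 before and 50 after), GGGCGG on either strand was found in 24 of 37 windows of member genes (64.9%), against 35.7% of all 32851 windows. CCAAT was found in 7 of 37 (18.9%), against 37.4% of all windows, and TGACGTCA, the cAMP response element, in 2 of 37 (5.41%), against 1.79%. The last were windows of Syn1 and Napa. The table did not list Syt4, Syt5, Syt7, Snap25, Vamp2, Doc2b, Syngr3 and Bin1.

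Syt7 (synaptotagmin 7), a slower sensor with high calcium affinity, had 2 called probe sets, both lower. Probe set 1441927_at gave 12.09, 11.80 and 11.75 at 2 months, 10.86, 10.78, 10.87 and 10.82 at 10 months and 10.43, 10.88, 10.31 and 11.10 at 18 months. Every sample of both later ages lay below the young ones. The change was −1.20 ± 0.18 at 18 months, a 2.30-fold decrease (adjusted p = 0.00553), and −1.04 ± 0.18 at 10 months (adjusted p = 0.0315), so that it fell in both comparisons. Probe set 1460081_at gave 11.08, 10.87 and 11.04 at 2 months, 10.96, 10.63, 10.65 and 10.79 at 10 months and 10.56, 10.07, 10.47 and 10.49 at 18 months, and it fell by 0.60 at 18 months (SE 0.14, adjusted p = 0.0258) with a difference of −0.24 ± 0.14 at 10 months, which was not called. Probe set 1439633_at gave 10.49, 10.33 and 10.51 at 2 months, 10.53, 10.48, 10.20 and 10.40 at 10 months and 10.28, 10.14, 10.29 and 10.20 at 18 months, where the 18 months samples also lay below the young ones but the difference of −0.21 ± 0.11 was not called. The fourth, 1423012_at, had a difference of −0.37 ± 0.16 and overlapped between the ages. All 4 differences had the same sign.

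No call was made in the other genes of this group. Syt5, another calcium-binding synaptotagmin, had 1 probe set, which gave 7.60, 7.93 and 8.38 at 2 months, 9.40, 8.94, 8.42 and 8.96 at 10 months and 9.21, 8.49, 9.28 and 8.64 at 18 months. The 18 months and 10 months samples all lay above the young ones, with a difference of 0.93 ± 0.26 (adjusted p = 0.0541). Syt4, a synaptotagmin found on dense core vesicles, ranged from 10.68 to 11.89 in 1415845_at (difference 0.68 ± 0.23), while its other probe set had a difference of −0.35 ± 0.49. Syt11 had 5 probe sets, 2 with positive and 3 with negative differences, and its brightest ranged from 12.84 to 13.43 (difference −0.29 ± 0.14). Syt2, a fast sensor of hindbrain and motor terminals, ranged from 9.01 to 9.81 in 1440323_at (difference 0.12 ± 0.21). Doc2b, a soluble calcium sensor linked to spontaneous release, ranged from 7.51 to 8.96 in 1420667_at (difference −0.57 ± 0.31).

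The SNARE group had 20 probe sets in 7 genes, of which 2 rose and 2 fell (20% called, against 7.46% of all probe sets). Snap25, a SNARE protein of the cell membrane, had 2 probe sets, and they moved in opposite directions. Probe set 1416828_at gave 12.58, 12.58 and 12.65 at 2 months, 13.41, 12.71, 13.70 and 13.07 at 10 months and 13.52, 13.55, 13.50 and 13.72 at 18 months. The 18 months samples were close together and above the young ones, and the 10 months samples were spread out above them as well. It rose by 0.97 ± 0.19 at 18 months, 1.96-fold (adjusted p = 0.0134), and the difference was 0.62 ± 0.19 at 10 months (adjusted p = 0.127). Probe set 1447763_at gave 10.96, 10.83 and 10.79 at 2 months, 10.16, 10.56, 10.07 and 10.29 at 10 months and 10.14, 10.05, 9.74 and 9.66 at 18 months. It fell to values that were below every young sample at both later ages, with a change of −0.96 ± 0.15 at 18 months, 1.95-fold lower (adjusted p = 0.00617), and −0.59 ± 0.15 at 10 months (adjusted p = 0.075). The mean of the probe sets of Snap25 had a difference of 0.00 ± 0.11 (SE).

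**Figure D2:**
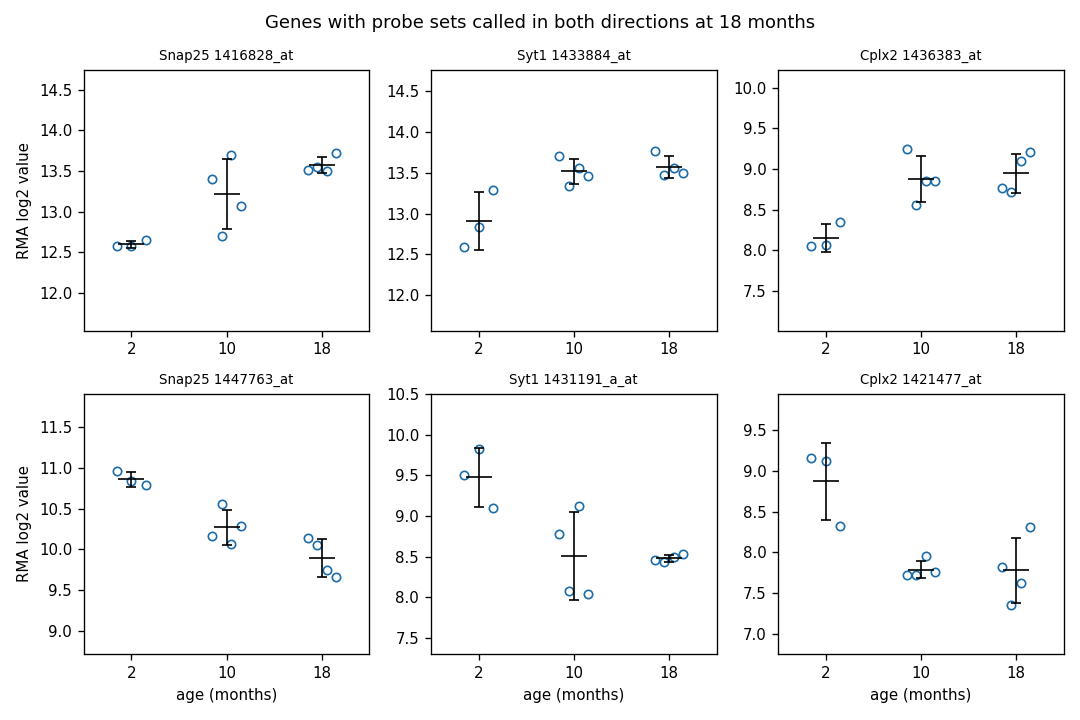
Values of the called probe sets of Snap25, Syt1 and Cplx2 by age. Circles are samples (RMA log2 value on the vertical axis, age in months on the horizontal axis, the same span of log2 units in each panel), and bars are the mean ± SD of 3 samples at 2 months and 4 at each later age. In each gene the upper panel goes up with age and the lower panel goes down, by 0.67 to 1.09 log2 units between 18 and 2 months.

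Stx1a, syntaxin 1A, is the other SNARE protein of the cell membrane. Probe set 1437390_x_at gave 11.73, 11.10 and 11.56 at 2 months, 10.98, 11.45, 10.01 and 10.94 at 10 months and 10.44, 10.41, 10.58 and 9.92 at 18 months. All 18 months samples were below the young ones, and 10 months array 3 stood below the other arrays of its age. It fell by 1.12 at 18 months (SE 0.29, adjusted p = 0.0395), with a difference of −0.62 ± 0.29 at 10 months. The suffix x marks a probe set with oligonucleotides that may also bind other transcripts. The other probe set, 1448366_at, gave 7.66, 7.23 and 7.87 at 2 months, 8.11, 7.73, 7.82 and 7.95 at 10 months and 7.63, 7.90, 8.23 and 7.71 at 18 months, with overlap between the ages and a difference of 0.28 ± 0.18 (adjusted p = 0.38).

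Nsf is the ATPase that separates used SNARE complexes. Probe set 1422456_at gave 12.04, 12.53 and 12.56 at 2 months, 13.11, 12.53, 13.06 and 12.89 at 10 months and 12.97, 13.15, 13.19 and 13.23 at 18 months. The 18 months samples were all above the young ones, and it rose by 0.76 ± 0.17 (adjusted p = 0.0216), with 0.52 ± 0.17 at 10 months (adjusted p = 0.143). Probe set 1422455_s_at gave 9.25, 10.23 and 9.81 at 2 months, 10.82, 9.49, 11.00 and 10.15 at 10 months and 10.45, 10.28, 10.84 and 10.94 at 18 months. Its difference of 0.86 ± 0.34 was in the same direction but the spread within each age was larger (adjusted p = 0.151). Of the 2 remaining probe sets, 1457205_at had a positive difference of 0.40 ± 0.20 and 1430409_at one of −0.03 ± 0.14.

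The adaptors that bring Nsf to the complexes were not called. Napa (alpha-SNAP) ranged from 10.52 to 11.57 in 1448243_at (difference 0.22 ± 0.21). Napb (beta-SNAP), the brain form, had 6 probe sets, of which 4 had positive and 2 negative differences. In Napb 1452444_at the values were 6.72, 7.45 and 6.95 at 2 months, 7.81, 6.40, 9.10 and 7.33 at 10 months and 7.40, 8.24, 8.04 and 8.44 at 18 months, so that the 10 months arrays alone spanned 2.70 log2 units and the difference of 0.99 ± 0.49 between 18 and 2 months was not called (adjusted p = 0.251). Its brightest probe set, 1423173_at, ranged from 11.31 to 12.30 (difference −0.37 ± 0.22). Vamp1 and Vamp2, the SNARE proteins of the vesicle, ranged from 10.04 to 11.65 and from 11.55 to 12.12 in their brightest probe sets, with differences of 0.64 ± 0.31 and 0.09 ± 0.14. The other probe set of Vamp2, 1420833_at, had a difference of −0.62 ± 0.32.

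Complexins clamp the assembled SNARE complex, and the group with Unc13a had 7 probe sets. Of these, 2 rose and 1 fell (42.9% called, against 7.46% of all probe sets). Cplx2 had 3 probe sets, each with a different pattern. Probe set 1436383_at gave 8.05, 8.06 and 8.35 at 2 months, 9.25, 8.56, 8.85 and 8.85 at 10 months and 8.77, 8.72, 9.09 and 9.21 at 18 months. All samples of both later ages were above the young ones, and it rose by 0.79 ± 0.17 (adjusted p = 0.0214), with 0.72 ± 0.17 at 10 months (adjusted p = 0.066). Probe set 1421477_at gave 9.16, 9.12 and 8.32 at 2 months, 7.72, 7.72, 7.95 and 7.76 at 10 months and 7.82, 7.35, 7.62 and 8.31 at 18 months. Samples at both later ages were below the young ones, of which the average of arrays 3 and 4 was the lowest. It fell by 1.09 at 18 months (SE 0.23, adjusted p = 0.0197) and by 1.08 at 10 months (adjusted p = 0.0496). Probe set 1455672_s_at gave 11.57, 11.26 and 11.66 at 2 months, 11.68, 11.88, 11.12 and 11.73 at 10 months and 11.33, 11.18, 11.48 and 11.30 at 18 months and overlapped between the ages (difference −0.17 ± 0.17).

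Cplx1, the other complexin, had 3 probe sets with positive differences. Probe set 1417747_at gave 9.49, 9.40 and 9.56 at 2 months, 10.74, 9.59, 10.24 and 9.92 at 10 months and 10.13, 10.13, 10.73 and 10.60 at 18 months. Every later sample was above the young ones, although 10 months array 2 was only just so, and it rose by 0.91 ± 0.24 at 18 months (adjusted p = 0.0423) with 0.64 ± 0.24 at 10 months (not called). In 1448832_a_at the values were 14.23, 14.18 and 14.31 at 2 months, 14.36, 14.28, 14.18 and 14.33 at 10 months and 14.30, 14.27, 14.30 and 14.30 at 18 months. These lie near the top of the scale, whose highest value on any array was 14.7, and the difference was 0.06 ± 0.09. Probe set 1417746_at had a difference of 0.26 ± 0.11 (adjusted p = 0.177), with no overlap between 18 and 2 months. Unc13a, which primes docked vesicles for fusion, ranged from 6.89 to 7.31 (difference −0.04 ± 0.10).

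The vesicle membrane and tethering proteins had 18 probe sets in 8 genes. Of these, 1 rose and 1 fell (11.1% called, against 7.46% of all probe sets). Syngr3, a synaptogyrin of the vesicle membrane, had the largest increase among the 98 probe sets. Probe set 1448216_at gave 7.42, 7.72 and 7.65 at 2 months, 9.77, 8.52, 9.96 and 8.64 at 10 months and 8.88, 9.81, 9.65 and 9.74 at 18 months. At 10 months the arrays fell into a higher pair and a lower pair, and each of the later samples was above all young ones. It rose by 1.92 ± 0.35 at 18 months, which is 3.79-fold (adjusted p = 0.0106), and by 1.62 ± 0.35 at 10 months (adjusted p = 0.0492). Probe set 1416098_at gave 10.62, 11.30 and 11.11 at 2 months, 11.81, 11.20, 11.84 and 11.21 at 10 months and 11.79, 11.70, 11.65 and 11.64 at 18 months, where the 18 months samples also lay above the young ones but the difference of 0.69 ± 0.20 missed the threshold (adjusted p = 0.0563).

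Syn2 (synapsin II) tethers reserve vesicles to the cytoskeleton. Probe set 1440762_at gave 7.41, 7.35 and 6.07 at 2 months, 5.56, 5.48, 6.07 and 5.39 at 10 months and 5.31, 5.93, 5.50 and 5.77 at 18 months. Young arrays 1 and 2 were high, and the mean of young arrays 3 and 4 was within the range of the 10 months samples. It fell by 1.32 at 18 months (SE 0.30, adjusted p = 0.0246), with a difference of −1.32 ± 0.30 at 10 months (adjusted p = 0.0555). Probe set 1428460_at gave 11.02, 11.67 and 10.94 at 2 months, 10.79, 10.53, 11.94 and 11.03 at 10 months and 10.46, 11.57, 10.91 and 11.94 at 18 months. The ages overlapped fully, with the highest value of each age in young array 2, 10 months array 3 and 18 months array 4, and the difference was 0.01 ± 0.38. The other 4 probe sets of Syn2 were not called and had differences of 0.40, −0.57, 0.10 and −0.10.

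The others of this group had no call. Syn1 (synapsin I) ranged from 9.29 to 10.60 in its 1 probe set, with differences of 0.56 ± 0.23 at 18 months and 0.76 ± 0.23 at 10 months. Syp (synaptophysin), the most used marker of the vesicle membrane, ranged from 10.46 to 12.26 in 1448280_at, with a difference of 0.57 ± 0.35. The transporter-like vesicle glycoproteins Sv2a, Sv2b and Sv2c had brightest probe sets that ranged from 11.11 to 12.71, from 8.81 to 10.34 and from 8.17 to 9.15. Their differences were 0.20 ± 0.37, 0.80 ± 0.33 and −0.11 ± 0.23. Syngr1, the other synaptogyrin, ranged from 10.94 to 11.74 (difference 0.24 ± 0.16).

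The Rab3 GTPases bind vesicles and link them to the active zone. Of their 8 probe sets, 1 rose and 1 fell (25% called, against 7.46% of all probe sets). Rab3a is the most abundant member of the family in brain. Probe set 1422589_at gave 10.45, 10.91 and 10.97 at 2 months, 12.29, 11.24, 11.62 and 11.79 at 10 months and 11.99, 11.44, 12.29 and 11.93 at 18 months. All samples of the later ages lay above the young ones, and it rose by 1.14 ± 0.25 at 18 months, 2.20-fold (adjusted p = 0.0211), with 0.96 ± 0.25 at 10 months (adjusted p = 0.0804). Probe set 1459980_x_at, which may also bind other transcripts, gave 13.38, 13.17 and 13.41 at 2 months, 13.31, 13.35, 12.93 and 13.21 at 10 months and 13.20, 13.04, 13.15 and 13.00 at 18 months. It overlapped between 18 and 2 months and had a difference of the opposite sign, −0.22 ± 0.12 (adjusted p = 0.3).

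RefSeq lists 2 starts for Rab3a, which follow chr8:70754453-70754702 and chr8:70754852-70755101 on the plus strand of GRCm38.p6. These 250 bases before each are shown for the same reason as in Syt1, with GGGCGG and CCAAT on either strand in capitals.
Rab3a upstream: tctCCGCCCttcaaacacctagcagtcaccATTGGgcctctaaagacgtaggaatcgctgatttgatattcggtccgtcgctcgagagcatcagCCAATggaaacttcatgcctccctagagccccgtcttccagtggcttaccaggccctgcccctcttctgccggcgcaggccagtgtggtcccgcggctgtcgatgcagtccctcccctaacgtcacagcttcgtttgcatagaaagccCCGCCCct
Rab3a downstream: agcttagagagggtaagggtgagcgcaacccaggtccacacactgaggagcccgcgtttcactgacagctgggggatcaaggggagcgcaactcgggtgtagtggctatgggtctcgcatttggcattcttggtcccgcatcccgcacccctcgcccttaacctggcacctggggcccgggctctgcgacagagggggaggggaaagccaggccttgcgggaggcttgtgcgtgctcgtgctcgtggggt
The upstream window held GGGCGG at 2 places and CCAAT at 2, and the downstream one held neither.

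Rab3c, a close relative, had 5 probe sets, 3 with negative and 2 with positive differences. Probe set 1432415_at gave 7.58, 7.16 and 7.42 at 2 months, 7.32, 7.43, 6.48 and 7.27 at 10 months and 6.46, 6.21, 6.94 and 6.38 at 18 months. The 18 months samples were all below the young ones, and it fell by 0.89 (SE 0.23, adjusted p = 0.0403), whereas the difference at 10 months was −0.26 ± 0.23. Probe set 1435047_at gave 11.85, 12.67 and 12.50 at 2 months, 12.97, 12.26, 13.03 and 12.67 at 10 months and 13.12, 13.01, 12.92 and 13.13 at 18 months. Here the 18 months samples were all above the young ones, but the difference of 0.71 ± 0.21 was not called (adjusted p = 0.067). Of the remaining probe sets, 1432432_a_at had a difference of −0.83 ± 0.33 and 1449494_at one of −0.38 ± 0.14. Rab3b ranged from 7.49 to 8.57 in its 1 probe set (difference −0.09 ± 0.21).

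**Figure D3:**
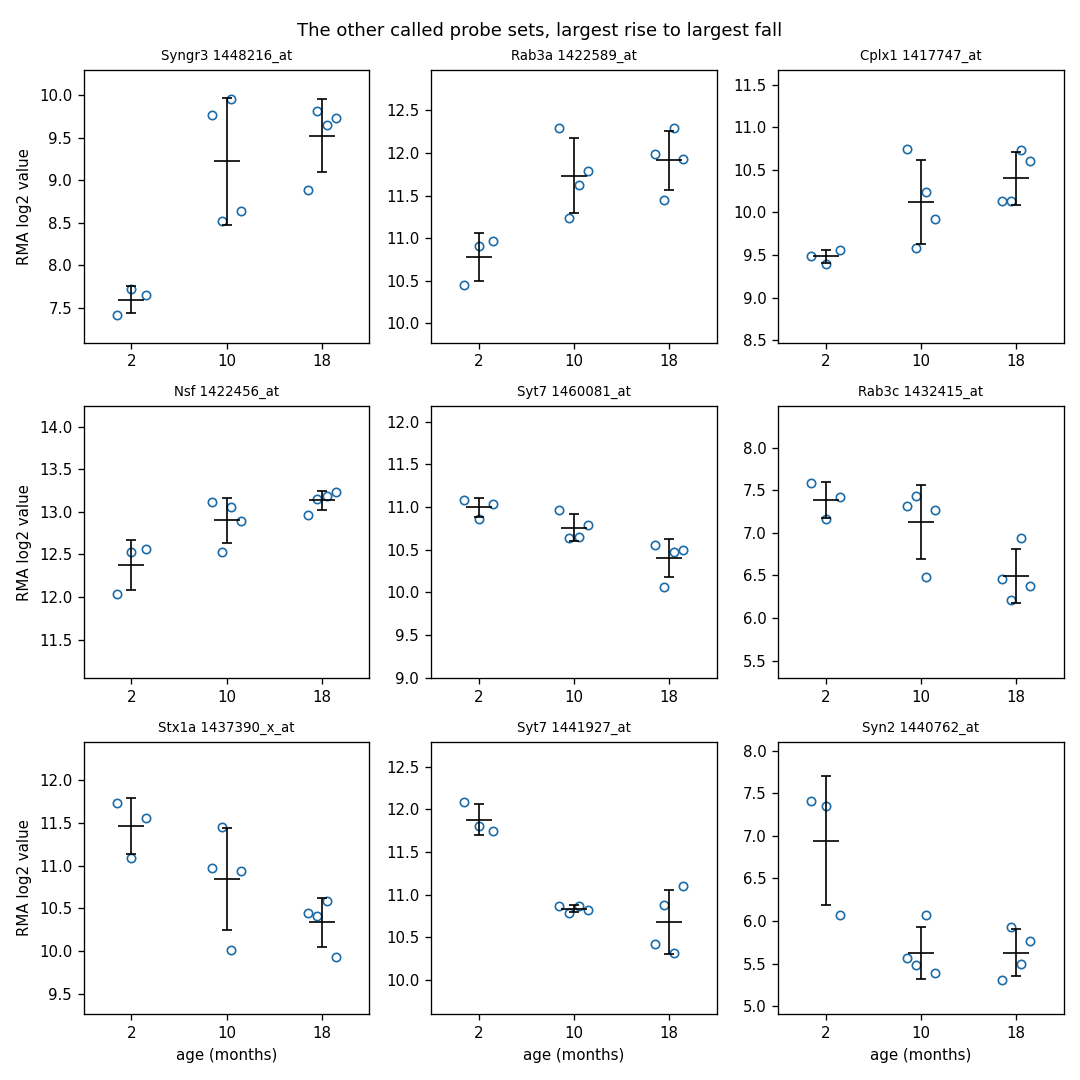
Values by age of the 9 called probe sets of the other 8 genes with a call. Circles are samples (RMA log2 value on the vertical axis, age in months on the horizontal axis, the same span of log2 units in each panel), and bars are the mean ± SD of 3 samples at 2 months and 4 at each later age. The first 4 panels rose at 18 months, led by Syngr3 1448216_at, and the last 5 fell.

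None of the 12 probe sets of the active zone scaffold was called, where 7.46% of all probe sets were. With so few probe sets this is near the share of the array. Rims1, which links Rab3 to the release site, ranged from 10.72 to 11.40 in 1435667_at and had no overlap between 18 and 2 months (difference 0.40 ± 0.13, adjusted p = 0.0774). The giant scaffold proteins Bsn (bassoon) and Pclo (piccolo) ranged from 9.83 to 10.18 and from 10.05 to 10.69, with differences of −0.07 ± 0.10 and 0.24 ± 0.13. Erc1, a binding partner of Rims1, ranged from 7.49 to 8.44 in 1424247_at (difference −0.03 ± 0.20). In 4 of the 12 probe sets (33.3%, against 23.6% of all probe sets) the ages of 18 and 2 months did not overlap. These pointed both ways. The 18 months samples were higher in Rims1 1435667_at and Pclo 1455373_at (0.52 ± 0.21) and lower in Erc1 1451279_at (−0.33 ± 0.11) and Bsn 1450467_at (−0.32 ± 0.13).

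None of the 12 probe sets of endocytosis genes was called, again against 7.46% of all probe sets and so near the share of the array. Snap91 (AP180), which recruits clathrin, ranged from 12.18 to 13.18 in 1416688_at, with a difference of 0.53 ± 0.19 and no overlap between 18 and 2 months. Its other probe set, 1437817_at, lay below the median level of the array and had a difference of −0.30 ± 0.10, also with no overlap. Dnm1 (dynamin 1), which cuts vesicles off the membrane, ranged from 12.39 to 12.99 in 1460365_a_at (difference −0.02 ± 0.17). Its other probe set, 1427754_a_at, had a difference of 0.74 ± 0.34 with overlap between 18 and 2 months. Synj1 (synaptojanin 1), a lipid phosphatase needed to shed the clathrin coat, ranged from 12.80 to 13.37 in 1454961_at (difference 0.09 ± 0.13), while 1436334_at of the same gene had a difference of 0.90 ± 0.37 and 1439997_at one of −0.25 ± 0.09, both with no overlap between 18 and 2 months. The curvature-sensing amphiphysins Amph and Bin1 ranged from 11.85 to 12.31 and from 9.14 to 10.44, with differences of 0.18 ± 0.10 and 0.39 ± 0.29. At an unadjusted p below 0.05, limma gave 4 of the 12 probe sets of the scaffold and 5 of the 12 of endocytosis (against 23.6% of all probe sets).

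Probe sets of the same gene were also set against each other. Of the 30 genes with several probe sets, 8 had differences of 1 sign between 18 and 2 months (4 positive, 4 negative) and 22 had both signs (73.3%, against 62.6% of all named genes with several probe sets, which have 2.86 each on average where the members have 3.03). In pairs of probe sets of the same gene, 55 of 115 had the same sign (47.8%), against 52.7% of pairs over all named genes. When both probe sets lay above the median level of the array, 34 of 68 pairs had the same sign (50%), against 51.8% over all named genes, so these shares were near those of the whole array. Across the 11 samples, the median correlation over all pairs was 0.35 in the members and 0.21 over all named genes. With both probe sets above the median level it was 0.49 and 0.34. After the mean of each age was removed, the median correlation was 0.41 and 0.26 over all pairs. With both probe sets above the median level it was then 0.60 and 0.45. The pairs share their arrays, and these values are a description. Among genes with at least 2 called probe sets, 3 of 4 members were called in both directions, against 98 of 302 over all named genes (32.5%). For the 2 rules that follow, the share of all named genes is not given, so these counts are not set against the array. Taking only the brightest probe set of each gene, 5 genes were called. These were Snap25, Syt1 and Nsf, which rose, and Syt7 and Stx1a, which fell. With the mean of the probe sets above the median level, in a separate limma fit adjusted over 12210 genes, 3 genes were called. These were Syngr3 (1.31 ± 0.25), Syt5 (0.93 ± 0.26) and Syt7 (−0.67 ± 0.11). Syt5 has 1 probe set, so its values are those that were not called among all probe sets (adjusted p = 0.0541). In the fit of gene means its adjusted p was 0.0424. The 5 and the 3 genes thus rest on unlike numbers of tests. Where the probes lie on each transcript was not used here.

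The 3′ minus 5′ control difference moved with age, so the fit was repeated with this difference as a covariate. None of the 98 probe sets was called by limma in that fit, as none of all probe sets was, and 13 of the 98 had an unadjusted p below 0.05 (13.3%, against 3.88% of all probe sets). The median difference of the 98 was −0.39 with the covariate, against 0.04 for all probe sets. The median SE of the 15 called probe sets was 0.49 with the covariate and 0.23 without it, and the median size of the change was 0.56 with it and 0.97 without it. Of the 7 probe sets that rose, 5 had a difference below 0 with the covariate (Nsf, Cplx1, Cplx2, Syngr3 and Rab3a), while Snap25 1416828_at (0.25 ± 0.49) and Syt1 1433884_at (0.25 ± 0.44) stayed above 0. All 8 that fell stayed below 0, with Syt1 1431191_a_at at −2.21 ± 0.61 and Syt7 1441927_at at −0.86 ± 0.50. The young samples and the later ones did not overlap in the control difference, so age and this difference cannot be told apart.

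**Figure D4:**
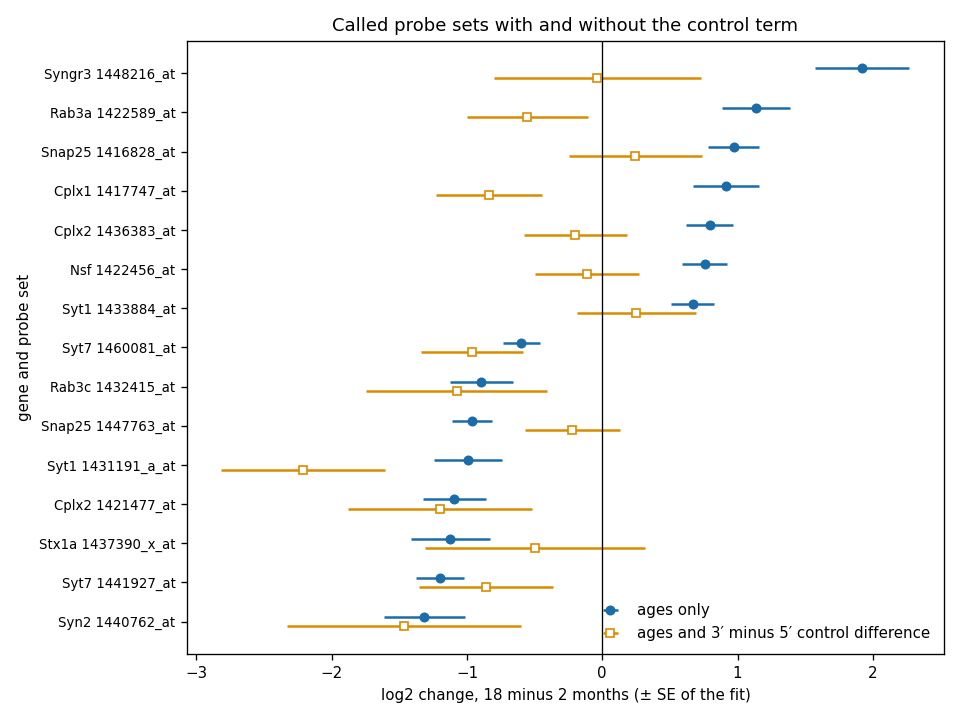
Change between 18 and 2 months of the 15 called probe sets in 2 fits. Filled circles are the fit with ages only and open squares the fit with the 3′ minus 5′ control difference as a further term (log2 change on the horizontal axis, bars = SE). The squares of 5 of the 7 higher probe sets lie below 0, and all squares have longer bars.

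Single arrays weighed on the calls. At 10 months, array 2 was the highest or the lowest of the 4 arrays in 78 of the 98 probe sets (79.6%, against 63.2% of all probe sets) and array 3 in 72 (73.5%, against 76.5%). Without 10 months array 2, and also without 10 months array 3, all 15 calls remained. Without 10 months array 1, 13 remained, and without 10 months array 4, 12 remained. Without young array 1, 2 of the 15 calls remained, and without young array 2, 6 remained. These 2 fits had 2 young samples left, so the loss of a sample and the values of that array cannot be told apart. Without 18 months array 3, 6 of the 15 remained. The share called over all probe sets moved as well, from 7.46% with all samples. It was 0.939% without young array 1, 3.70% without young array 2 and 4.30% without 18 months array 3. It was 5.64% without 10 months array 1 and 5.41% without 10 months array 4. Syt7 1441927_at and Snap25 1447763_at were called in each of the 12 fits that left out 1 array. Leaving out young array 3 or 4 removed no sample, as the other array of the pair stood for their average. Snap25 1416828_at and Syngr3 1448216_at lost their call in 1 of them, and Stx1a 1437390_x_at in 8.

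A further list of the pathway held 71 genes with 191 probe sets. Of these, 16 rose and 6 fell between 18 and 2 months (11.5%, against 7.46% of all probe sets), with a median change of −0.03. The largest increases were those of Atp6v1b2 1419883_s_at (1.68 ± 0.29, adjusted p = 0.00897), a subunit of the pump that acidifies vesicles, and Sh3gl2 1418792_at (1.12 ± 0.31, adjusted p = 0.0474), endophilin A1 of endocytosis. The largest decreases were those of Rims2 1422809_at (−0.93 ± 0.14, adjusted p = 0.00607), of the active zone, and Doc2a 1436862_at (−0.91 ± 0.16, adjusted p = 0.0102), a calcium sensor. Another probe set of Rims2, 1436470_at, rose by 0.78 ± 0.19 and was chosen after its values were seen.

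Markers of cell types were counted beside these results. Of 27 probe sets of neurons in general, 1 rose and 1 fell (7.41% called, median 0.04). Of 22 of dopaminergic neurons, 3 rose and 4 fell (31.8% called, against 7.46% of all probe sets, median 0.03). The samples of 18 and 2 months did not overlap in 13 of these 22 (59.1%, against 23.6% of all probe sets), with 8 higher and 5 lower. The mean level of the dopaminergic list lay between 9.78 and 9.88 at 18 months and between 9.74 and 9.88 at 2 months. Microglial markers rose in 5 of 16 probe sets (median 0.60), and the mean level of that list was 8.70 to 9.15 at 18 months and 8.21 to 8.54 at 2 months. None of the microglial probe sets fell. For astrocytes, 1 of 35 probe sets rose (median 0.27), and the mean level was 8.38 to 8.57 at 18 months and 8.26 to 8.27 at 2 months. For oligodendrocytes, 3 of 24 rose (median 0.03), with a mean level of 11.14 to 11.30 at 18 months and 11.05 to 11.19 at 2 months. Markers of cortex and hippocampus fell in 2 of 19 probe sets, and their mean level was 5.76 to 5.89 at 18 months and 5.93 to 6.05 at 2 months. Choroid plexus markers rose in 2 of 14, with a mean level of 5.54 to 5.80 at 18 months and 5.78 to 6.26 at 2 months. The share called was 31.25% for microglia, 2.86% for astrocytes and 12.5% for oligodendrocytes. It was 10.5% for cortex and hippocampus and 14.3% for choroid plexus, against 7.46% of all probe sets. The ages of 18 and 2 months did not overlap in the mean level of the lists of microglia, of astrocytes and of cortex and hippocampus. The part of these shifts in the changes of the synaptic vesicle cycle genes was not tested.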

How the data were processed

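Arrays (Affymetrix mouse genome expression arrays) were hybridised with RNA labelled from 50 ng of total RNA in 2 cycles. The authors ran RMA (background correction, normalization and summary per probe set) on the scanner files, which were not used here, and deposited 1 log2 value for each probe set and array. An array has no read depth, so precision is limited by how many arrays there are. Of 45101 probe sets, 64 controls were left out. The annotation gave 1 gene for 34945 probe sets, several for 932 and none for 9160, and 34741 of the named ones matched a gene table by gene number with no symbol changed. Each array is a separate pool of mice, and the spread behind a p-value is that between pools.

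One fit in limma 3.58.1 (R 4.3.3) held the 3 ages as means without a covariate. Adjusted p-values of this fit are Benjamini-Hochberg values over 45037 probe sets, and those of the gene means are over 12210 genes. The submitters' processing notes name limma 3.4.5. The self-test on simulated data was passed. Exact tests used scipy 1.17.1. The members and lists were chosen with earlier results of these data known. Values in every sample are given for called probe sets and for the brightest others of the same genes, and other genes are given as ranges, with Syt5 and Napb 1452444_at added after their values were seen. The further list is given by counts and its 2 called probe sets of largest change in each direction. Alternatives were 12 separate arrays, a replicate block, median centring, the 3′ minus 5′ control covariate, a level filter, array weights, an intensity trend, no fold threshold, other rules for genes and leaving out each array. Leaving out the 4 samples on the positive side of the first principal component was added after seeing the data. Promoter windows came from RefSeq (GRCm38.p6).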

Additional observations from a re-analysis of the deposited data

Results flagged for a closer look

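In groups of 4 samples, the highest or lowest sample was compared with the nearest other, and 6 of 78 groups had a sample farther away than Dixon's limit allows for the range of the group. This was done for 37 of the 98 member probe sets, and the others were not checked. Chance marks about 1 in 20 groups. Nsf 1457205_at was 6.39 in 18 months array 4, against 5.72 to 5.83 in the other arrays of that age. Cplx1 1448832_a_at was 14.27 in 18 months array 2, against 14.30 in the others, a gap of a few hundredths. Cplx2 1421477_at was 7.95 in 10 months array 3, against 7.72 to 7.76 in the others, and stayed below all young samples. Syn2 1460230_at was 8.77 in 18 months array 1, against 9.16 to 9.23. Rab3c 1449494_at was 9.46 in 10 months array 1, against 9.16 to 9.20, and Rab3c 1449798_at was 3.09 in 10 months array 3, against 2.63 to 2.65. Of these probe sets only Cplx2 1421477_at was called.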

How the results depend on the processing

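Between 18 and 2 months, 7 member probe sets rose and 8 fell. With the 3′ minus 5′ covariate 0 rose and 0 fell, and the differences of Nsf 1422456_at (−0.11), Cplx1 1417747_at (−0.84), Cplx2 1436383_at (−0.20), Syngr3 1448216_at (−0.036) and Rab3a 1422589_at (−0.56) turned below 0. The young samples did not overlap with the later ones in this covariate, so it cannot be told apart from age. With array weights 11 of the 98 rose, against 3095 of all 45037 probe sets (6.87%). Without the samples on the positive side of the first principal component, a choice made after seeing the data, 4 rose, against 1813 of all probe sets (4.03%). With the 12 arrays separate and a replicate block 4 fell, against 993 of all probe sets (2.20%). The array numbers share only a number (4 of 12 same-number pairs correlated above 0.1, range −0.61 to 0.43), so the samples were not treated as paired. Leaving out 1 array gave 0 to 12 that rose and 2 to 8 that fell. Of these, 0 rose and 2 fell without young array 1, 3 and 3 without young array 2, 11 rose without 10 months array 2, 12 without array 3 of that age, 4 fell without 18 months array 1, 4 and 4 without array 2, 2 and 4 without array 3, and 3 and 5 without array 4. The counts over all probe sets moved as well, with 2047 that rose and 1312 that fell in the fit reported. They were 294 and 129 without young array 1 and 1066 and 602 without young array 2. Without 10 months array 2 they were 2371 and 1520, and without array 3 of that age 3134 and 2192. Without 18 months array 1 they were 1420 and 691, and without array 2 of that age 1189 and 758. Without 18 months array 3 they were 1294 and 643, and without array 4 of that age 1182 and 769. The cause of these shifts was not tested.

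Between 10 and 2 months, 1 rose and 2 fell. The counts were 2 and 1 with 12 separate arrays, 0 and 0 with the replicate block, 0 and 0 with the covariate, 8 and 6 with array weights and 0 and 1 with the intensity trend. Median centring gave 1 that fell. Without the samples on the positive side of the first principal component they were 0 and 0. Leaving out 1 array gave 0 to 3 that rose and 0 to 5 that fell, and both counts were 0 without young array 1, young array 2, 10 months array 1, 10 months array 4 or 18 months array 2. Over all probe sets, the counts between 10 and 2 months were 377 and 236 in the fit reported and 590 and 387 with 12 separate arrays. They were 2 and 1 with the replicate block and 0 and 0 with the covariate. Array weights gave 1578 and 1366, and the intensity trend gave 133 and 84. Without young array 1 they were 1 and 0, and without young array 2 they were 1 and 2. Leaving out 10 months array 1 gave 2 and 1, as did leaving out array 4 of that age. Leaving out 18 months array 2 gave 33 and 20. Between 18 and 10 months the count of members was 0 in every alternative run.

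At the brightest probe set 5 genes were called. For this and the other counts of genes here, the share of all named genes is not given. Any probe set gave 11 genes, the mean of probe sets above the median level 3, 12 separate arrays 8, the covariate 0, array weights 9, and leaving out 1 array 1 to 10. Over all probe sets, centring gave 2540 higher and 926 lower, and shifted their median difference by less than 0.1.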
